A study of Rattus norvegicus with 23 samples.

Results

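Peroxisomal genes and the gene of the receptor PPAR alpha were followed in the kidneys of Sabra rats. The genes were 5 genes of peroxisomal proteins (Pxmp4, Mpv17l, Ehhadh, Pex11a and Cat) and Ppara, which had 9 probe sets among them and were 6 of the 14217 genes that a probe set with 1 gene symbol measured. A probe set is the group of short probes that an Affymetrix array carries for a transcript. The gene of the thiolase Acaa1a belongs to the same pathway, but its 1 probe set is annotated to Acaa1b as well, so no value is given for it. Each gene is represented by its probe set of highest mean, and the 3 genes with a further probe set (Pxmp4, Mpv17l and Pex11a) were checked on it.

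The 23 arrays each held the kidney RNA of a male rat, 4 months old, 3 months after surgery. SBH/y is the hypertension-prone Sabra line and SBN/y the hypertension-resistant one. The groups were SBH/y with 1 kidney, after removal of the right kidney (n = 6), SBH/y with 2 kidneys, after a sham operation (n = 6), SBN/y with 1 kidney (n = 6) and SBN/y with 2 kidneys (n = 5). All animals ate rat chow freely. The labels number the samples of a group and say no more of their origin. The p-values therefore rest on sample-to-sample spread, part of which may be technical.

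Peroxisomes are small organelles, abundant in the proximal tubule of the kidney, that shorten very long chain fatty acids by beta-oxidation, make ether lipids and break down hydrogen peroxide. Their proteins are made in the cytosol and brought in by peroxins. PPAR alpha is a nuclear receptor for fatty acids that pairs with RXR and switches on genes of fatty acid oxidation in peroxisomes, mitochondria and microsomes. In rodents given PPAR alpha agonists, Ehhadh, Acaa1a, Pex11a and Cyp4a genes are known to respond strongly and peroxisomes multiply.

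Values are log2 signals, on which a difference of 1 is a doubling, and a probe set's level is not compared with that of another gene. The lowest value was 1.89 and the highest 13.67, the median of an array lay between 4.65 and 4.69, and arrays of one group correlated with each other at 0.990 to 0.997. The difference between the 3′ and 5′ GAPDH control probe sets, a sign of RNA quality, was 0.53 ± 0.11 in SBH/y with 1 kidney, 0.46 ± 0.06 in SBH/y with 2 kidneys, 0.45 ± 0.04 in SBN/y with 1 kidney and 0.35 ± 0.03 in SBN/y with 2 kidneys (log2, mean ± SD). The proximal tubule markers averaged 10.64 to 10.85 per array in SBH/y with 1 kidney, 10.70 to 10.78 in SBH/y with 2 kidneys, 10.69 to 10.77 in SBN/y with 1 kidney and 10.68 to 10.79 in SBN/y with 2 kidneys, over all 14 markers listed. In whole kidney RNA, fewer cells of a type and less RNA per cell cannot be told apart.

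Promoter sequences help to place these genes, since PPAR alpha and RXR bind a direct repeat of AGGTCA with 1 base between the sites (AGGTCANAGGTCA, where N is any base). The promoters, 250 bases before to 50 bases after the gene's start, came from RefSeq with its GRCr8 build, which is a reference rat and not a Sabra rat. An entry was found for 6 genes, Pxmp4, Ppara, Ehhadh, Pex11a, Cat and Acaa1a. Those of Pxmp4 (chr3:163570780-163571079, minus strand) and Cat (chr3:110329477-110329776, minus strand) are shown because these genes differed between the strains, and that of Ehhadh (chr11:92746159-92746458, plus strand) as a classic PPAR alpha target whose strain difference did not pass the test. Capitals mark CCAAT and AGGTCA on either strand, and ATTGG is CCAAT read on the other strand.
Pxmp4: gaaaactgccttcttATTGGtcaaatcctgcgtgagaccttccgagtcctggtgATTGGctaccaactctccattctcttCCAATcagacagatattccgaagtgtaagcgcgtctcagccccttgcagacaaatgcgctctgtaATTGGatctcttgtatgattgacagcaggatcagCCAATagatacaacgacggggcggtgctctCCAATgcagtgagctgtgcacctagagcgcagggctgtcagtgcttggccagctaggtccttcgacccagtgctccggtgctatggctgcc
Cat: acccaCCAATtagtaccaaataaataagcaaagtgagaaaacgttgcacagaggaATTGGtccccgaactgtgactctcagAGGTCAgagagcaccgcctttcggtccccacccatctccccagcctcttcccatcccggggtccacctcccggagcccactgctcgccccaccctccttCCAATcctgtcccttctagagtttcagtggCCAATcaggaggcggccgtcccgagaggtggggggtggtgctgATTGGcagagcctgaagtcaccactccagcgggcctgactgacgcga
Ehhadh: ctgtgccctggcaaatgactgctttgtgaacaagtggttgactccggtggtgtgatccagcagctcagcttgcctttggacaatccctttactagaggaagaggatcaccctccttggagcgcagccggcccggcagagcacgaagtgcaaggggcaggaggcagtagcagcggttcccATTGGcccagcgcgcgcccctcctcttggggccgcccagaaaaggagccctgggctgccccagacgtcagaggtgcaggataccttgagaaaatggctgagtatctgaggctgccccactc
Both strands were searched. None of the 6 promoters held the direct repeat, which 0.0538% of 33469 RefSeq promoters of the same length held. The search took exact letters only, and so rare a match would seldom be met in 6 promoters. Its absence therefore cannot show that these genes lack a site for PPAR alpha. The single site AGGTCA, which the repeat contains, stood once, in the Cat promoter, and in 16.2% of all promoters. CCAAT stood 6 times in the Pxmp4 promoter, 5 times in that of Cat, 3 times in that of Acaa1a and once in that of Ehhadh, and it had no match in those of Ppara and Pex11a. At least 1 CCAAT was found in 37.5% of all promoters, at least 5 in 0.218% and at least 6 in 0.0418%. These matches describe the letters of the reference rat in this window.

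The 2 membrane proteins separated the strains completely, and in opposite directions. Pxmp4 encodes a small integral protein of the peroxisomal membrane whose function is not well known. In rats with 1 kidney its level had a lowest value of 7.76, a median of 7.98 and a highest value of 8.65 in SBH/y, against 5.48, 5.67 and 5.92 in SBN/y. In rats with 2 kidneys the lowest, median and highest values were 7.71, 7.79 and 7.90 in SBH/y, and the 5 SBN/y arrays read 5.72, 5.58, 5.86, 5.79 and 5.86. Every SBH/y array was above every SBN/y array, whichever the kidney number.

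Pxmp4 averaged 8.07 ± 0.33 in SBH/y with 1 kidney and 5.69 ± 0.20 in SBN/y with 1 kidney (SD, n = 6 each). The difference was 2.39 ± 0.11 (log2, SE), a 5.22-fold higher signal in SBH/y, with an adjusted p of 3.07e-15 by limma. With 2 kidneys the means were 7.80 ± 0.07 in SBH/y and 5.76 ± 0.12 in SBN/y, a difference of 2.04 ± 0.11, or 4.11-fold (adjusted p = 2.54e-13, limma). Among all 14217 genes this was the 4th strongest rise in SBH/y in both comparisons. The second Pxmp4 probe set gave differences of 1.64 with 1 kidney and 1.48 with 2 kidneys (adjusted p of 5.59e-12 and 1.34e-10, limma), so that both probe sets separated the strains.

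Mpv17l, which encodes an Mpv17-like membrane protein linked in mice to the handling of reactive oxygen species, was low in SBH/y. With 1 kidney its lowest, median and highest values were 6.75, 7.12 and 7.64 in SBH/y, against 9.60, 9.74 and 10.15 in SBN/y. With 2 kidneys they were 7.32, 7.60 and 7.95 in SBH/y, and the SBN/y arrays read 9.78, 9.91, 10.02, 9.91 and 9.75. The highest SBH/y array was thus well below the lowest SBN/y array in both comparisons.

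With 1 kidney Mpv17l averaged 7.15 ± 0.34 in SBH/y and 9.81 ± 0.20 in SBN/y (SD, n = 6 each). The log2 difference was -2.66 ± 0.12 (SE), a 6.33-fold lower signal in SBH/y (adjusted p = 3.01e-15, limma). With 2 kidneys the means were 7.62 ± 0.21 in SBH/y and 9.87 ± 0.11 in SBN/y, a difference of -2.25 ± 0.13, or 4.76-fold lower (adjusted p = 2.99e-13, limma). It was the 2nd largest difference of either direction among all genes with 1 kidney and the 7th with 2 kidneys. The second Mpv17l probe set differed by -2.00 with 1 kidney and -1.30 with 2 kidneys (adjusted p of 3.80e-14 and 7.15e-10, limma).

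**Figure D1:**
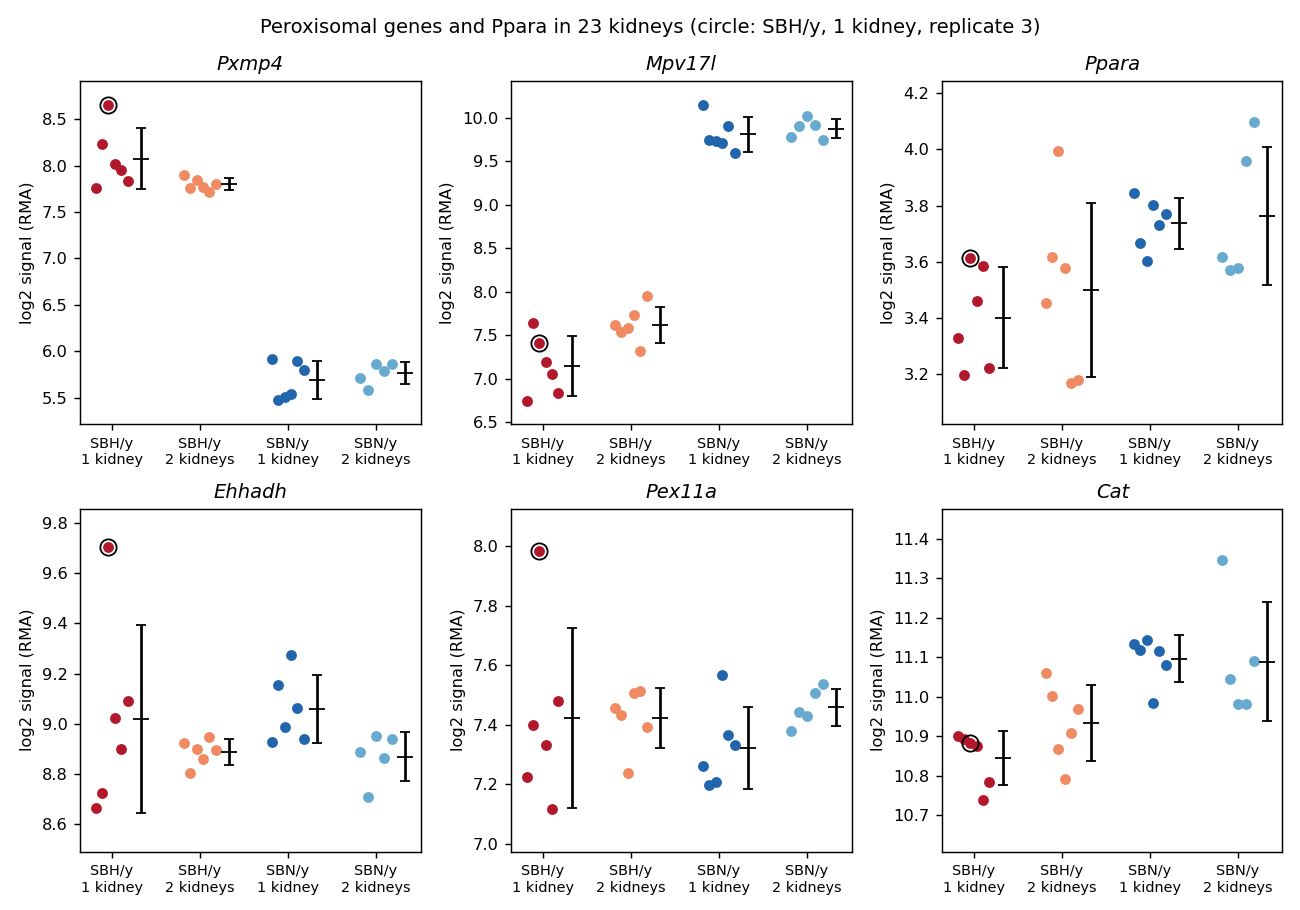
Log2 signal of the 6 genes in each of 23 kidneys, 1 point per array, with the mean and SD of each group beside its points and 1 array of SBH/y with 1 kidney (replicate 3) circled. Pxmp4 is higher and Mpv17l lower in all SBH/y arrays than in any SBN/y array, while the groups overlap for Ehhadh and Pex11a.

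The chromosomal neighbours of both genes were measured as well. Of the 10 measured genes nearest to Pxmp4 on GRCr8, 5 on each side, 0 passed the threshold in either strain comparison by limma, and 0 had an unadjusted p under 0.05. Of the 10 nearest to Mpv17l, 2 passed with 1 kidney and 2 with 2 kidneys, all lower in SBH/y. Among all genes 17.7% passed with 1 kidney (7.48% lower in SBH/y) and 11.0% with 2 kidneys (5.54% lower). Of the 10 genes nearest to Mpv17l, 6 had an unadjusted p under 0.05 with 1 kidney and 4 with 2 kidneys (limma). All of these were lower in SBH/y. Over all 14217 genes, 4088 had such a p with 1 kidney and 3186 with 2 kidneys, in either direction. The adjacent gene Bmerb1 had log2 differences of -0.72 with 1 kidney and -0.62 with 2 kidneys (adjusted p of 2.53e-07 and 9.09e-06, limma). Rrn3 differed by -0.26 with 1 kidney (adjusted p = 0.0212) and Pdxdc1, next to Mpv17l on the other side, by -0.44 with 2 kidneys (adjusted p = 0.0127).

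Cat encodes catalase, the main enzyme that breaks down hydrogen peroxide in peroxisomes. With 1 kidney its lowest, median and highest levels were 10.74, 10.88 and 10.90 in SBH/y, against 10.98, 11.12 and 11.14 in SBN/y. With 2 kidneys they were 10.79, 10.94 and 11.06 in SBH/y, and the SBN/y arrays read 11.35, 11.05, 10.98, 10.98 and 11.09. The strains did not overlap with 1 kidney and overlapped with 2 kidneys. Cat was lower in SBH/y with 1 kidney by a log2 difference of -0.25 ± 0.06 (SE), 1.19-fold (adjusted p = 0.00409, limma). With 2 kidneys the difference of -0.16 ± 0.06 did not pass (adjusted p = 0.146, limma).

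Ehhadh encodes the bifunctional enzyme of the middle steps of peroxisomal beta-oxidation. With 1 kidney its lowest, median and highest levels were 8.67, 8.96 and 9.70 in SBH/y, against 8.93, 9.03 and 9.27 in SBN/y. With 2 kidneys they were 8.81, 8.90 and 8.95 in SBH/y, and the SBN/y arrays read 8.89, 8.71, 8.95, 8.86 and 8.94. The strains overlapped in both settings, and 1 SBH/y array with 1 kidney stood above all others. The strain difference was -0.04 with a 95% interval of -0.27 to 0.19 with 1 kidney, and 0.02 with an interval of -0.22 to 0.26 with 2 kidneys (adjusted p of 0.892 and 0.965, limma).

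Pex11a encodes a membrane peroxin that elongates peroxisomes before they divide. With 1 kidney its lowest, median and highest levels were 7.12, 7.37 and 7.98 in SBH/y, against 7.20, 7.30 and 7.57 in SBN/y. With 2 kidneys they were 7.24, 7.45 and 7.51 in SBH/y, and the SBN/y arrays read 7.38, 7.44, 7.43, 7.51 and 7.54. Here too the strains overlapped and the same SBH/y array was highest. The strain difference was 0.10 with 1 kidney (95% interval -0.10 to 0.30, adjusted p = 0.610, limma) and -0.04 with 2 kidneys (-0.24 to 0.17, adjusted p = 0.913, limma). Its second probe set differed by -0.03 and -0.05 and did not pass in either comparison.

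Ppara, the receptor gene, gave a dim signal, below the median of all probe set means (4.66) on every array. With 1 kidney its lowest, median and highest levels were 3.20, 3.40 and 3.61 in SBH/y, against 3.60, 3.75 and 3.85 in SBN/y. With 2 kidneys they were 3.17, 3.52 and 3.99 in SBH/y, and the SBN/y arrays read 3.62, 3.57, 3.58, 3.96 and 4.10. The strains overlapped in both settings, by a single array with 1 kidney. The log2 difference of -0.34 ± 0.11 (SE) with 1 kidney passed narrowly (adjusted p = 0.0499, limma), and leaving out any of 16 of the 23 arrays in turn ended that call, with adjusted p up to 0.115. With the GAPDH difference as a covariate it was -0.23 (adjusted p = 0.277). With 2 kidneys the difference was -0.27 ± 0.12 and did not pass (adjusted p = 0.211, limma).

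Counted over the 6 genes, 4 differed between the strains with 1 kidney, against 17.7% of all 14217 genes in that comparison. Pxmp4 was the 1 gene higher in SBH/y, where 10.2% of all genes were higher, and Mpv17l, Cat and Ppara were lower, where 7.48% of all genes were. With 2 kidneys 2 of the 6 differed, against 11.0% of all genes. Pxmp4 was higher, as were 5.50% of all genes, and Mpv17l lower, as were 5.54%.

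**Figure D2:**
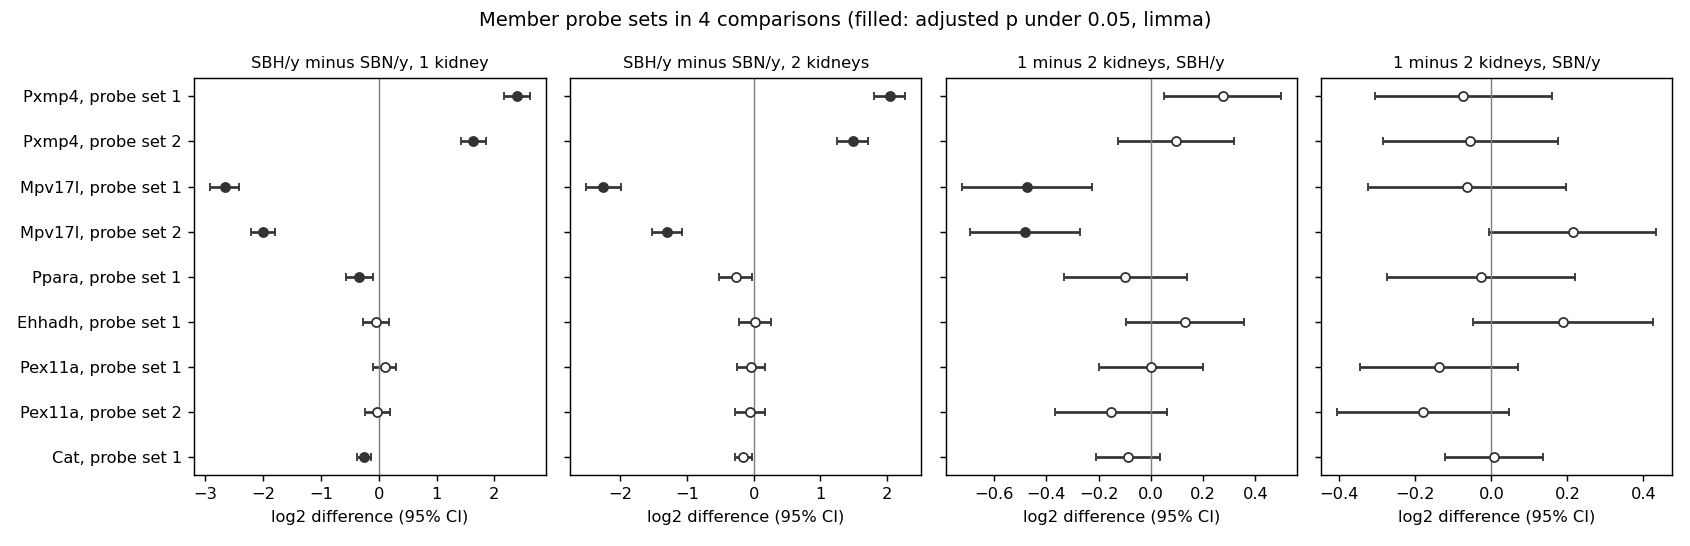
Log2 difference with its 95% confidence interval for each of the 9 probe sets in 4 comparisons (limma), each panel with its own scale, filled where the adjusted p is under 0.05. Both probe sets of Pxmp4 lie to the right and both of Mpv17l to the left in the strain comparisons, and in SBH/y the Mpv17l probe sets lie left of 0 for 1 against 2 kidneys.

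The genes of a wider peroxisome list differed between the strains in both directions. Of 64 listed genes 55 were measured, the members included. The counts below thus hold Pxmp4 and Mpv17l in both comparisons and Cat with 1 kidney. These members were chosen with earlier results of these data known, which adds to the shares. With 1 kidney 18 of the 55 (32.7%) passed, 6 higher and 12 lower in SBH/y, against 17.7% of all genes. The median log2 difference of the 55 was -0.06 against 0.01 over all genes. With 2 kidneys 14 of the 55 (25.5%) passed, 8 higher and 6 lower, against 11.0% of all genes. The median of the 55 was then -0.04. The same 11 genes passed in the same direction in both comparisons, which was 61.1% of the calls with 1 kidney and 78.6% of those with 2 kidneys. Over all genes these shares were 44.4% and 71.2%. The 11 were Pxmp4, Mpv17, Acot4, Crot, Dao and Idh1, higher in SBH/y, and Mpv17l, Slc25a17, Pecr, Hao1 and Ephx2, lower in SBH/y.

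The enzymes of fatty acid handling included a rise and a fall of similar size. Pecr, a reductase that acts on trans-2-enoyl-CoA, fell by 0.80 ± 0.08 in SBH/y with 1 kidney and by 0.86 ± 0.08 with 2 kidneys (log2, SE; adjusted p of 1.01e-08 and 8.78e-09, limma). Acot4, which cleaves dicarboxylic acyl-CoAs such as succinyl-CoA, was higher by 0.82 ± 0.10 with 1 kidney and 0.73 ± 0.10 with 2 kidneys (adjusted p of 4.01e-07 and 8.55e-06, limma). Acox2, the oxidase of branched chains and bile acid intermediates, fell by 0.43 ± 0.09 with 1 kidney (adjusted p = 8.67e-04, limma). Its signal was dim. The group means ran from 4.15 in SBH/y with 1 kidney to 4.63 in SBN/y with 2 kidneys, below the median of all probe set means (4.66). Scp2, a sterol carrier and thiolase, fell by 0.16 with 1 kidney (adjusted p = 0.0211, limma). Crot, which moves medium-chain products onto carnitine, was 0.22 higher with 1 kidney and 0.24 higher with 2 kidneys (adjusted p of 0.0430 and 0.0418, limma). A second Crot probe set gave -0.13 with 1 kidney and 0.15 with 2 kidneys and did not pass (adjusted p of 0.569 and 0.567). Leaving out single arrays ended the Crot call in 10 of 23 fits with 1 kidney and 8 of 23 with 2 kidneys. Of 13 measured beta-oxidation genes, 2 were higher and 3 lower with 1 kidney (38.5%, against 17.7% of all genes). With 2 kidneys 2 were higher and 1 lower (23.1%, against 11.0% of all genes).

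Among the matrix oxidases and related enzymes, the hydroxyacid oxidase Hao1, which makes hydrogen peroxide from glycolate, fell by 1.07 ± 0.15 in SBH/y with 1 kidney and by 1.29 ± 0.16 with 2 kidneys (adjusted p of 5.12e-06 and 8.33e-07, limma). The Hao1 mean in SBH/y with 2 kidneys, 4.39, was below the median of all probe set means (4.66). Ephx2, the soluble epoxide hydrolase that converts epoxides of arachidonic acid, fell by 0.73 ± 0.06 with 1 kidney and by 0.79 ± 0.07 with 2 kidneys (adjusted p of 2.10e-09 and 1.33e-09, limma). Idh1, an NADPH-forming isocitrate dehydrogenase, was higher by 0.23 with 1 kidney and 0.26 with 2 kidneys (adjusted p of 0.00166 and 9.73e-04). Dao, which oxidises D-amino acids, was higher by 0.19 and 0.25 (adjusted p of 0.0137 with 1 kidney and 0.00324 with 2 kidneys). The CoA-cleaving hydrolase Nudt19 fell by 0.21 with 2 kidneys (adjusted p = 0.0156). Of 15 measured genes of this role, 2 were higher and 4 lower with 1 kidney, and 2 higher and 3 lower with 2 kidneys, by limma.

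In the membrane, Mpv17, an inner mitochondrial membrane protein first described in peroxisomes and a relative of Mpv17l, was higher in SBH/y by 0.44 ± 0.06 with 1 kidney and 0.42 ± 0.06 with 2 kidneys (adjusted p of 3.26e-06 and 1.77e-05, limma). This was opposite in sign to Mpv17l. Slc25a17, a carrier of CoA and other cofactors, fell by 0.20 in both comparisons (adjusted p of 0.0192 with 1 kidney and 0.0407 with 2 kidneys), and its call was lost in 1 and 8 of the 23 fits that left out an array. Slc27a2, a very long chain acyl-CoA synthetase, was 0.29 higher with 2 kidneys (adjusted p = 0.00101). Of 9 measured membrane genes, 2 were higher and 2 lower with 1 kidney (44.4%, against 17.7% of all genes). With 2 kidneys 3 were higher and 2 lower (55.6%, against 11.0% of all genes). Pxmp4 and Mpv17l are in both counts.

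Among genes of import and ether lipid synthesis, the share that passed with 1 kidney was 15.4% of 13 measured peroxins and 20.0% of 5 genes of alpha-oxidation and ether lipid synthesis, near the 17.7% of all genes. With 2 kidneys it was 7.69% of the peroxins, against 11.0% of all genes. Pex11g, a relative of Pex11a, fell by 0.29 in SBH/y with 1 kidney (adjusted p = 0.00857, limma) and Pex5, the import receptor, by 0.16 (adjusted p = 0.0331), where a dimmer Pex5 probe set gave -0.06 (adjusted p = 0.773). The Pex5 call was lost in 7 of the 23 fits that left out an array. With 2 kidneys Pex2, a part of the import ligase, was higher by 0.30 (adjusted p = 0.0100), and a second Pex2 probe set gave 0.15 and did not pass (adjusted p = 0.307). Far1, which makes fatty alcohols for ether lipids, fell by 0.33 with 1 kidney (adjusted p = 0.0200), and with 2 kidneys none of the 5 alpha-oxidation and ether lipid genes passed by limma, of which 2 had an unadjusted p under the threshold of 0.05.

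**Figure D3:**
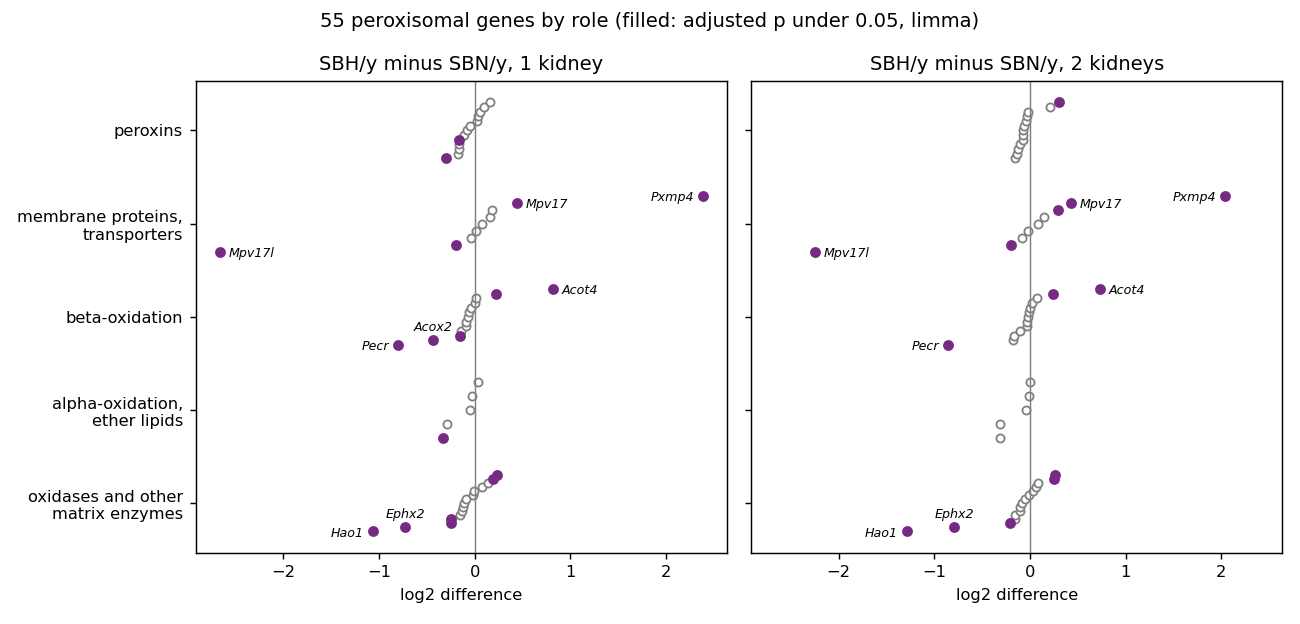
Log2 difference between SBH/y and SBN/y of 55 measured peroxisomal genes in 5 roles, 1 point per gene, with 1 kidney on the left and 2 kidneys on the right, filled where the adjusted p is under 0.05 (limma). Pxmp4 and Mpv17l lie far from the other genes on opposite sides, and Pecr, Hao1 and Ephx2 lie left of 0 in both panels.

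PPAR receptors and partners showed 1 gene higher and 2 lower in SBH/y with 1 kidney, of 11 measured (27.3%, against 17.7% of all genes). Ppard, the broadly expressed PPAR delta, was 0.30 ± 0.09 higher (adjusted p = 0.0218, limma), and its dimmer probe set gave -0.09 (adjusted p = 0.626). With the GAPDH difference as a covariate the Ppard difference was 0.18 (adjusted p = 0.201), and 4 of the 23 fits that left out an array also ended the call. Ppargc1a, the coactivator PGC-1 alpha, was 0.29 lower, with a log2 difference of -0.29 ± 0.06 (adjusted p = 0.00109, limma). Its second probe set gave -0.20 without passing (adjusted p = 0.116), and a dimmer probe set of the gene passed at -0.42 (adjusted p = 0.00348). Ppara was the other lower gene. With 2 kidneys only Ppard passed, at 0.37 ± 0.09 (adjusted p = 0.00951, limma). This was 9.09% of the 11, near the 11.0% of all genes. That call too was lost with the GAPDH covariate (0.22, adjusted p = 0.173) and on the dimmer probe set (0.12, adjusted p = 0.573).

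The known PPAR alpha targets outside the peroxisome did not share 1 direction. Of 25 measured, 11 passed with 1 kidney (44.0%, against 17.7% of all genes), 8 higher and 3 lower in SBH/y. With 2 kidneys 3 passed (12.0%, near the 11.0% of all genes), 2 higher and 1 lower. The median log2 difference of the 25 was 0.02 with 1 kidney and 0.06 with 2 kidneys. The count with 1 kidney was 7 without replicate 3 of SBH/y with 1 kidney, and 7 without replicate 2 of SBN/y with 1 kidney. The count with 2 kidneys was 5 without replicate 3 of SBH/y with 1 kidney, an array that enters there only through the shared estimate of the spread.

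Cyp4a1, a fatty acid omega-hydroxylase, was far higher in SBH/y, by 2.43 ± 0.12 with 1 kidney and 2.42 ± 0.12 with 2 kidneys (adjusted p of 7.38e-15 and 2.72e-14, limma). Its group means were 10.40 in SBH/y with 1 kidney, 10.33 in SBH/y with 2 kidneys, 7.97 in SBN/y with 1 kidney and 7.92 in SBN/y with 2 kidneys. Acot1, a cytosolic acyl-CoA thioesterase, was higher by 0.52 and 0.33 (adjusted p of 1.25e-05 with 1 kidney and 0.00546 with 2 kidneys). Hadhb, the thiolase subunit of the mitochondrial trifunctional protein, fell by 0.29 and 0.31 (adjusted p of 3.92e-05 with 1 kidney and 4.21e-05 with 2 kidneys). With 1 kidney, the mitochondrial carrier Ucp2 was 0.41 higher (adjusted p = 4.27e-06) and Txnip, which binds thioredoxin, fell by 0.50 (adjusted p = 0.00288).

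The values of other cell types were set beside these counts. Over all genes 17.7% passed with 1 kidney and 11.0% with 2 kidneys. Of the 14 proximal tubule markers, 1 was higher and 2 lower in SBH/y with 1 kidney, and 2 higher and 1 lower with 2 kidneys (21.4% in both). Of 8 measured fat markers, 2 were lower with 1 kidney and 3 with 2 kidneys, Fabp4 and Ucp1 in both. The mean level of the fat markers ranged from 4.92 to 5.26 in SBH/y with 1 kidney, 4.78 to 5.34 in SBH/y with 2 kidneys, 5.04 to 5.67 in SBN/y with 1 kidney and 5.04 to 5.97 in SBN/y with 2 kidneys. The 6 liver markers averaged 3.94 to 4.23, 3.90 to 4.07, 4.03 to 4.19 and 3.94 to 4.16 in the same order of groups, below the median probe set. Of 5 measured blood and immune markers, 3 were higher and 1 lower in SBH/y with 1 kidney, and 2 higher and 1 lower with 2 kidneys. This was 80% of the 5 with 1 kidney and 60% with 2 kidneys, above the shares of all genes. Of 8 distal nephron and collecting duct markers, 1 was higher and 3 lower with 1 kidney, and 1 higher and 1 lower with 2 kidneys. Of 7 markers of glomerulus, vessel and stroma, 3 were higher and 1 lower with 1 kidney (57.1%). With 2 kidneys 0 of these 7 passed by limma, and 2 had an unadjusted p under 0.05. The part of these cell types in the strain differences was not tested.

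The comparisons of 1 kidney with 2 kidneys asked what followed uninephrectomy in each strain. In SBH/y, 1 of the 6 genes passed for 1 kidney against 2 kidneys, beside 7.16% of all genes (4.76% higher and 2.40% lower with 1 kidney). This was Mpv17l, whose SBH/y levels with 1 kidney (6.75 to 7.64) and 2 kidneys (7.32 to 7.95) overlapped. It fell by 0.48 ± 0.12 (log2, SE; adjusted p = 0.0172, limma) and its second probe set by 0.48 ± 0.10 (adjusted p = 0.00399, limma). The call on the first probe set was lost without replicate 1 or 6 of SBH/y with 1 kidney or replicate 6 of SBH/y with 2 kidneys, at adjusted p up to 0.0661. Pxmp4 differed by 0.27 ± 0.11 and did not pass (adjusted p = 0.180), and its difference was 0.16 without replicate 3 of SBH/y with 1 kidney. The other members did not pass either. Ehhadh differed by 0.13 (95% interval -0.10 to 0.36), Cat by -0.09 (-0.21 to 0.04), Ppara by -0.10 (-0.33 to 0.14), and the Pex11a interval ran from -0.20 to 0.20.

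In SBN/y none of the 6 genes passed for 1 kidney against 2 kidneys by limma, also at an unadjusted p under 0.05, where 0.253% of all genes passed after adjustment. The differences were -0.07 for Pxmp4, -0.06 for Mpv17l, -0.03 for Ppara, 0.19 for Ehhadh, -0.14 for Pex11a and 0.01 for Cat. The 95% interval of the Ehhadh difference was -0.05 to 0.42, and that of Mpv17l -0.32 to 0.20.

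The test of the difference between the strains' responses found none of the 6 genes past the threshold by limma, where 0.408% of all genes passed, and 2 of the 6 had an unadjusted p under 0.05. Mpv17l fell further in SBH/y (-0.48) than in SBN/y (-0.06), a difference of -0.41 ± 0.18 (adjusted p = 0.515, limma). The Pxmp4 response was 0.27 in SBH/y and -0.07 in SBN/y, a difference of 0.35 ± 0.16 (adjusted p = 0.568, limma). On its second probe set Mpv17l passed. There its SBH/y levels ran from 6.14 to 6.83 with 1 kidney and from 6.73 to 7.23 with 2 kidneys, and its SBN/y levels from 8.29 to 8.59 with 1 kidney and from 7.99 to 8.47 with 2 kidneys. The response was -0.48 in SBH/y and 0.21 in SBN/y, a difference of -0.69 ± 0.15 (adjusted p = 0.0369, limma). The 2 probe sets thus lay on different sides of the threshold.

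In SBH/y 7.16% of all genes passed for 1 kidney against 2 kidneys, 4.76% higher and 2.40% lower with 1 kidney. Over the wider lists, 2 of the 55 peroxisomal genes fell with 1 kidney in SBH/y (3.64%) and none rose. Beside Mpv17l this was the dim Acox2, by 0.30 ± 0.09 (adjusted p = 0.0445, limma), and leaving out single arrays gave counts of 0 to 2. The Acox2 call was lost in 17 of those 23 fits (adjusted p up to 0.125), with the GAPDH covariate (-0.22, adjusted p = 0.232) and with the SBH/y groups fitted alone (adjusted p = 0.175). In SBN/y, where 0.253% of all genes passed, none of the 55 passed by limma, and 2 had an unadjusted p under 0.05. Of the 25 targets 2 rose in SBH/y with 1 kidney, Ucp2 by 0.30 (adjusted p = 0.00117) and Plin2, a coat protein of lipid droplets, by 0.26 (adjusted p = 0.0116). That count was 4 without replicate 4 of SBN/y with 1 kidney and 5 without replicate 5 of SBH/y with 1 kidney. In SBN/y none of the 25 passed by limma, and 4 had an unadjusted p under 0.05. In the test of the difference between the responses, none of the 55 peroxisomal genes and none of the 25 targets passed by limma. Of these, 3 and 2 had an unadjusted p under 0.05. Only 0.408% of all genes passed that test, so lists of this size would seldom hold a call.

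Ppargc1a was the 1 gene of these lists whose response differed between the strains on its main probe set. Its means were 7.88 in SBH/y with 1 kidney, 8.21 in SBH/y with 2 kidneys, 8.17 in SBN/y with 1 kidney and 8.07 in SBN/y with 2 kidneys. It fell by 0.33 ± 0.06 with 1 kidney in SBH/y (adjusted p = 8.04e-04, limma), and its second probe set differed by -0.27 without passing (adjusted p = 0.0604). A dimmer probe set of the gene differed by -0.55 and passed (adjusted p = 8.41e-04, limma). The difference of the responses was -0.42 ± 0.09 (adjusted p = 0.0259, limma). Its other probe sets gave -0.34 and -0.43 with adjusted p of 0.345 and 0.301. The adjusted p rose to at most 0.0648 without replicate 2 or 5 of SBN/y with 2 kidneys.

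Blood and immune markers moved with the response in SBH/y. Their mean level was 7.73 to 8.09 in SBH/y with 1 kidney, above the 7.43 to 7.65 of SBH/y with 2 kidneys, and 7.51 to 7.94 in SBN/y with 1 kidney against 7.50 to 7.62 in SBN/y with 2 kidneys, over 5 of 6 listed markers. The distal nephron and collecting duct markers averaged 8.67 to 8.94 in SBH/y with 1 kidney and 8.93 to 9.11 in SBH/y with 2 kidneys. Of these 8 markers, 2 fell with 1 kidney in SBH/y. The 7 measured markers of glomerulus, vessel and stroma averaged 6.78 to 7.01 in SBH/y with 1 kidney and 6.78 to 6.97 in SBH/y with 2 kidneys, but 5 of the 7 passed, 2 higher and 3 lower with 1 kidney. This was 71.4%, against 7.16% of all genes, and the log2 differences of the 7 ran from -0.42 to 0.84. Of the 5 blood and immune markers, 4 rose. The part of these marker lists in the falls of Mpv17l, Acox2 and Ppargc1a was not tested.

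Within groups, Ehhadh and Pex11a varied together from array to array. After each group's mean was taken off, they correlated at r = 0.774 over the 23 arrays, which share their normalization, and at 0.494 without replicate 3 of SBH/y with 1 kidney. Pxmp4 correlated with Ehhadh at 0.506 and with Pex11a at 0.583, and without that array at 0.0169 and 0.209. Pxmp4 and Mpv17l, which were opposite between the strains (r = -0.952 over the arrays), correlated at 0.636 after the group means were taken off and at 0.631 without that array. On their first probe sets the 2 membrane genes thus correlated positively within groups, over all 23 arrays, and were opposite between the strains. The correlation was not computed on their second probe sets. In SBN/y with 1 kidney the 2 Pxmp4 probe sets ordered the arrays differently. Replicate 1 was highest on the first (5.92) and lowest on the second (5.59). Replicate 2 was lowest on the first (5.48) and highest on the second (5.99).

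That array, replicate 3 of SBH/y with 1 kidney, stood apart in the PPAR alpha targets. It was above the other 5 arrays of its group for 19 of the 25 targets outside the peroxisome, and above all 22 other arrays for 14 of them. The same held for 20 and 13 of the 55 peroxisomal genes, while it was the highest of its group for 13.6% of all genes. Vnn1, a pantetheinase, read 9.30 on it, against 7.82 to 8.32 on the other arrays of the group. Ehhadh read 9.70 against 8.67 to 9.09, Ech1, an enoyl-CoA isomerase, 10.35 against 9.53 to 9.75, and Cyp4a1 10.99 against 10.14 to 10.36. Hacl1, a lyase of alpha-oxidation, read 7.74 against 6.69 to 7.19. Angptl4, an inhibitor of lipoprotein lipase, read 6.40 against 5.38 to 5.94, and Pex11a 7.98 against 7.12 to 7.48. Ppara itself was 3.61 on this array and barely above the next array of its group.

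Single arrays led the targets in the SBN/y groups too. Replicate 4 of SBN/y with 1 kidney was the highest of its group for 17 of the 25 targets and for 20.0% of all genes, and replicate 5 of SBN/y with 2 kidneys for 14 of 25 and 18.3%. In SBH/y with 2 kidneys no array was highest for more than 6 of the 25. The proximal tubule markers of replicate 3 of SBH/y with 1 kidney averaged 10.85, the highest of its group and of all 23 arrays. Its distal nephron and collecting duct markers averaged 8.67, the lowest of its group and below the lowest array of each other group (8.93 in SBH/y with 2 kidneys, 8.88 in SBN/y with 1 kidney and 8.96 in SBN/y with 2 kidneys). Its fat markers, at 5.20, and liver markers, at 3.98, lay within the range of their group. Its GAPDH difference was 0.42, the lowest of its group. The part of these values in the high targets was not tested.

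**Figure D4:**
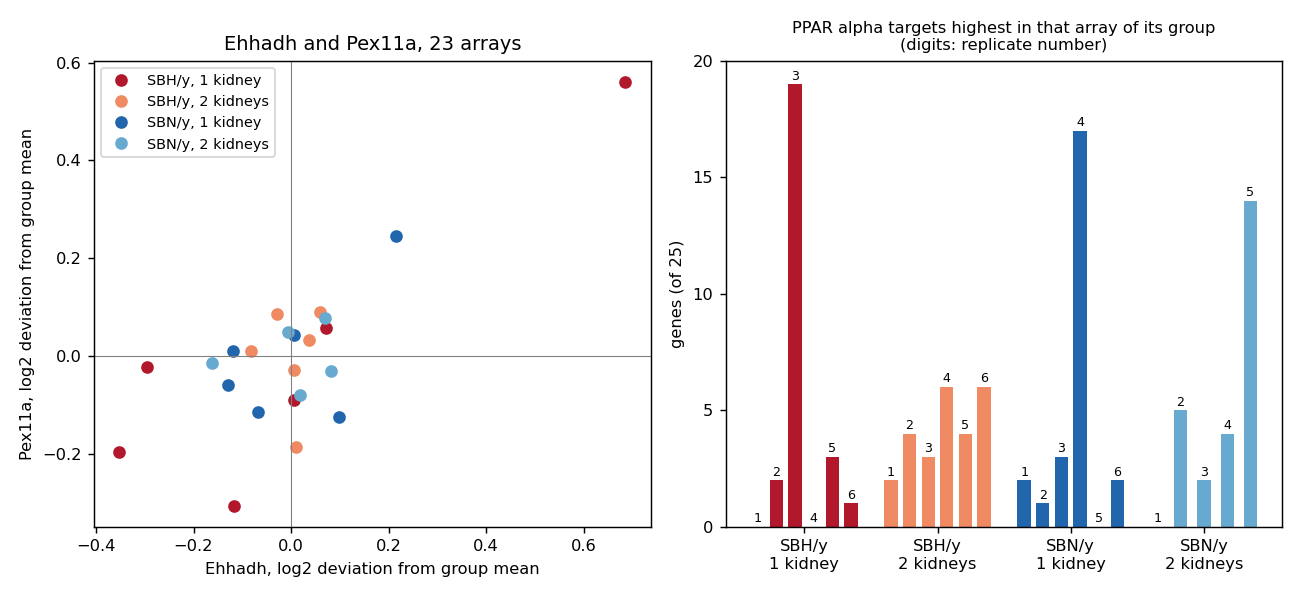
Left, Ehhadh and Pex11a in 23 arrays as log2 deviations from their group's mean, with replicate 3 of SBH/y with 1 kidney at the upper right. Right, for each array, the number of 25 PPAR alpha targets for which it was the highest of its group, 19 for that array, 17 for replicate 4 of SBN/y with 1 kidney and 14 for replicate 5 of SBN/y with 2 kidneys.

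The genes with patterns most like those of the members were found by Pearson's r over the 23 arrays, with r after the group means were taken off given second. For Pxmp4 they were Enpp6 (0.982, then 0.625), Cyp4a1 (0.978, 0.306) and Serpinc1 (0.976, 0.563). For Mpv17l they were Bhmt (0.980, 0.277), Mrap (0.980, 0.356) and Gstt2 (0.979, 0.603). These 2 sets follow the strain gap, and the second values are lower. For Ehhadh they were Lonp2, the peroxisomal Lon protease (0.809, 0.841), Acsl1, a long-chain acyl-CoA synthetase (0.808, 0.815), and Adtrp (0.790, 0.912). For Pex11a they were Lonp2 (0.782, 0.852), the carnitine carrier Slc25a20 (0.770, 0.794) and Hsdl2 (0.764, 0.762). Lonp2 was thus among the 3 nearest of both. For Cat they were Lclat1 (0.864, 0.787), Rbm47 (0.843, 0.587) and Gclm (0.843, 0.600), and for the dim Ppara they were Pdgfd (0.849, 0.785), Neil1 (0.783, 0.653) and Dock3 (0.781, 0.680).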

How the data were processed

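The 23 samples of rat kidney RNA each gave 1 Affymetrix array. The deposited values are log2 signals, 1 per probe set and array, for which the submitters' processing notes name GCOS and RMA without versions. RMA is known to correct background, quantile-normalize the arrays and summarise each probe set, so all arrays share a scale and differences of dim probe sets are compressed. The precision is limited by the number of arrays.

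The 57 control probe sets were left out and the other 31042 were fitted with limma 3.58.1 (R 4.3.3), with 4 group means and 5 contrasts (strain at each kidney number, 1 against 2 kidneys in each strain, and the difference of these responses). Tests were two-sided, Benjamini-Hochberg adjusted over all 31042 probe sets, with a threshold of 0.05. Genes came from the platform annotation, with symbols updated through RefSeq GRCr8 for the 20758 probe sets whose gene ID was found. Of the probe sets 20826 had 1 symbol, 436 several and 9780 none, and a gene is its highest-mean probe set (14217 genes). Members and gene lists were chosen with earlier results of these data known. Genes named from the lists are those with the smallest p past the threshold, up to 5 per role in a strain comparison and up to 3 otherwise. For each member the 3 genes of highest r over the arrays are named, leaving out bare locus symbols. Genes named for replicate 3 of SBH/y with 1 kidney, for neighbouring position or as markers were chosen after their values were seen. The fit was tested on simulated data. Alternatives changed the variance model, the samples fitted, the filter on dim probe sets, normalization, probe set, replicate block and a GAPDH covariate, and left out each array.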

Additional observations from a re-analysis of the deposited data

Results flagged for a closer look

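The response to uninephrectomy differed between the strains by a test of that difference for the second probe set of Mpv17l, at -0.69 (SBH/y minus SBN/y, log2, adjusted p = 0.0369, limma), while its first probe set gave -0.41 (adjusted p = 0.515).

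The same test passed for the first probe set of Ppargc1a, at -0.42 (adjusted p = 0.0259, limma), and its other probe sets gave -0.34 and -0.43 without passing.

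No array stood apart from its group by Dixon's ratio in any of the 36 member groups examined.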

How the results depend on the processing

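The strain differences of Pxmp4 and Mpv17l kept their direction and stayed past the threshold in every alternative run, as did Cat with 1 kidney. With the groups compared fitted alone, counts past the threshold were 7 for PPAR alpha targets between strains with 1 kidney, and 0 for members and 0 for peroxisomal genes in the SBH/y response. With the GAPDH covariate they were 5 for targets between strains with 2 kidneys, and 1 for peroxisomal genes and 4 for targets in the SBH/y response. With a gene's next probe set, the response difference gave 1 member and 1 peroxisomal gene. Over all genes, the SBN/y response gave 57 calls without dim probe sets against 36, and the response difference 91 with a trended, robust variance against 58.

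Leaving out each array gave 7 to 12 targets (strain, 1 kidney), 3 to 5 targets (strain, 2 kidneys), and, for the SBH/y response, 0 to 1 members, 0 to 2 peroxisomal genes and 2 to 5 targets. Over all genes it gave 15 to 50 for the SBN/y response and 40 to 119 for the response difference, the 119 without replicate 3 of SBH/y with 1 kidney. Leaving out replicate 3 of SBH/y with 2 kidneys brought Ppara with 2 kidneys past the threshold (adjusted p = 0.0308), and quantile-normalizing once more did so for Cat (-0.21, adjusted p = 0.0350).

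Signs turned for differences that had not passed the test, and for Crot and Ppard on another probe set. With the next probe set these were Crot -0.13, Pex11a -0.0282 and Ppard -0.0929 (strain, 1 kidney) and Mpv17l 0.21 (SBN/y response). With the GAPDH covariate they were Ehhadh 0.0726 (strain, 1 kidney), Pex11a 0.0547 (strain, 2 kidneys), Pex11a 0.0616 and Ppara 0.0005 (SBH/y response) and Ppara 0.10 (SBN/y response). Leaving out arrays gave Ehhadh -0.18 to 0.0303 and Pex11a -0.0104 to 0.16 (strain, 1 kidney), Ehhadh -0.0224 to 0.0386 and Pex11a -0.0555 to 0.0017 (strain, 2 kidneys), Ehhadh -0.0074 to 0.20, Pex11a -0.11 to 0.0610 and Ppara -0.16 to 0.0017 (SBH/y response), Cat -0.0197 to 0.0712 and Ppara -0.0761 to 0.0558 (SBN/y response), and Ehhadh -0.20 to 0.0120 and Ppara -0.15 to 0.0293 (response difference). The cause was not tested.

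Samples of the same replicate number correlated in their deviations from the group means at -0.17 to 0.26, over 0.1 in 2 of 6 or 1 of 5 pairs of a comparison. The labels do not say whether the numbers pair the samples, and these correlations cannot settle it. With the replicate block, Ppara with 1 kidney had an adjusted p of 0.0554, Crot of 0.0577 with 1 kidney and 0.0506 with 2 kidneys and Slc25a17 of 0.0749 with 2 kidneys, and the Ppara difference in the SBN/y response was 0.0034. It ended these 4 calls and no other. Among single genes, 7 calls were lost with the compared groups fitted alone, 9 on the next probe set (Crot and Ppard with 1 kidney among them, with their sign turned) and 5 with the GAPDH covariate. Arrays limit what can be seen for dim probe sets such as Ppara.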
